A study of Mus musculus with 4 samples.

Results

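A set of 7 genes of the CXC chemokine system was followed in myeloid-derived suppressor cells (MDSCs) exposed to EGCG, a green tea catechin: the ligands Cxcl1, Cxcl2, Cxcl3 and Cxcl16 and the receptors Cxcr1, Cxcr2 and Cxcr4. The 7 genes were selected on the EGCG-against-control difference itself, since Cxcl3 was known to be lower with EGCG, and on what the family does in MDSC recruitment. Their differences between the groups are therefore a description, and what the fit across all genes called among them is given only as a count that supports nothing. All 7 were found by name among 53465 genes listed, and all 7 were among the 14682 genes with enough counts to be tested.

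The cells came from spleens of male BALB/c mice that had received 4T1 mammary carcinoma cells at 6 weeks of age, as the study's methods describe. Cells were harvested on day 21 by the sample labels, or after 2 weeks by the methods, and were captured with magnetic beads against Gr-1, an epitope on both Ly-6G and Ly-6C, which selects granulocytic as well as monocytic cells. There were 2 control libraries, from cells kept for 6 h in medium alone. The 2 EGCG libraries came from cells given 5 μg/mL EGCG for the same 6 h. All 4 came from tumor-bearing animals. At this dose and time the study reported strongly reduced viability and more apoptosis of MDSCs. The part of cell loss in the differences below was not tested. Whether the libraries of a group stem from separate mice or separate wells is not given in the sources used here, so the errors measure the spread between these libraries, which may be technical.

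CXC chemokines are small secreted proteins named for a pair of cysteines with another residue between them. CXCL1, CXCL2 and CXCL3 carry a Glu-Leu-Arg (ELR) motif ahead of the cysteines and attract neutrophils through CXCR2, which in mice is joined by CXCR1. CXCR4 is the receptor of CXCL12 and holds immature neutrophils in the bone marrow. CXCL16 is a membrane-bound chemokine and lipoprotein scavenger that binds CXCR6 and can be shed. In tumor-bearing hosts the ELR ligands and CXCR2 are known for drawing granulocytic MDSCs to spleen and tumor.

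The 3 ELR ligand genes lie in a row on the plus strand of chromosome 5 of GRCm38: Cxcl3 (ENSMUSG00000029379) from 90786103 to 90789600, Cxcl1 (ENSMUSG00000029380) from 90891241 to 90893115 and Cxcl2 (ENSMUSG00000058427) from 90903871 to 90905938. Cxcl3 and Cxcl1 are 101.6 kb apart, and Cxcl1 and Cxcl2 are 10.8 kb apart. The last 120 bases before their start sites are shown because these neighbors share short runs there, taken from RefSeq (GRCm38.p6, plus strand, 5′ to 3′). RefSeq places the start sites at 90891245 (Cxcl1), 90903899 (Cxcl2) and 90786101 (Cxcl3). These differ from the starts of the gene spans above, slightly for Cxcl1 and Cxcl3 and more for Cxcl2. Capitals mark the 2 longest runs found in all 3 promoters: an 11-base run that matches the NF-κB consensus and an 8-base run that resembles a TATA box.
Cxcl1, chr5:90891125-90891244: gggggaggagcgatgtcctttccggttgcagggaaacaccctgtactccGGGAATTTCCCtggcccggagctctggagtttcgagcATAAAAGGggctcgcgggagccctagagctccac
Cxcl2, chr5:90903779-90903898: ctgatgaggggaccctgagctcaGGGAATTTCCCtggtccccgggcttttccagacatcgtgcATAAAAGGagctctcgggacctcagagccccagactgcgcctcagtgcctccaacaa
Cxcl3, chr5:90785981-90786100: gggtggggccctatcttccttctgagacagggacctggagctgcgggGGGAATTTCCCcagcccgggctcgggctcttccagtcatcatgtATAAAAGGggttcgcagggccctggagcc

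The run GGGAATTTCCC began 71 bases before the start site of Cxcl1, 97 bases before that of Cxcl2 and 73 bases before that of Cxcl3, and ATAAAAGG followed at 34, 57 and 29 bases before the start. The map of shared runs shows the same order in each promoter. Distances are counted from the RefSeq starts, and the windows aligned below end there too. The RefSeq start of Cxcl2 lies downstream of the start of its gene span, so its larger distances depend on the annotation used. These runs were picked after the sequences were seen. Among 32851 RefSeq promoters of 300 bases (250 before and 50 after the start), 14 held GGGAATTTCCC on either strand, which is 0.0426%, and 1.76% held ATAAAAGG. The NF-κB consensus itself, read on both strands, was present in 8.46% of the promoters; in each ELR promoter it matched at overlapping positions on the 2 strands, because the run is a near-palindrome. Over these 120 bases, Cxcl1 and Cxcl3 were identical at 63.9% of aligned positions, Cxcl1 and Cxcl2 at 53.4%, and Cxcl2 and Cxcl3 at 52.0%. Over 250 bases the order turned, with 58.7% for Cxcl2 and Cxcl3, 52.7% for Cxcl1 and Cxcl3 and 52.0% for Cxcl1 and Cxcl2. Cxcr1 and Cxcr2, as a pair for comparison, were identical at 46.2% over 120 bases and 50.9% over 250 bases, so no pair is called closer than another.

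**Figure D1:**
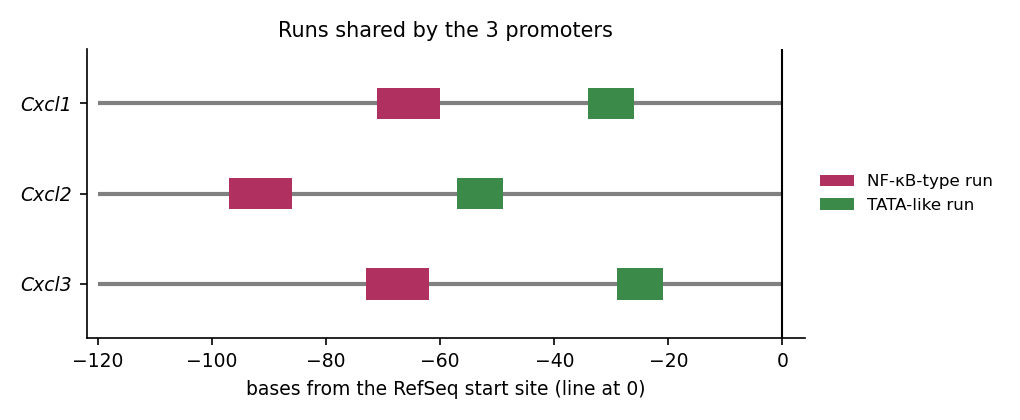
Map of the 120 bases before the RefSeq start sites of Cxcl1, Cxcl2 and Cxcl3, in bases from the start (line at 0), with boxes for the 11-base run that matches the NF-κB consensus and the 8-base TATA-like run. The first begins 71, 97 and 73 bases before the start of Cxcl1, Cxcl2 and Cxcl3, and the second 34, 57 and 29 bases before it. The RefSeq start of Cxcl2 lies downstream of the start of its gene span, which lengthens its distances.

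Of the 7 genes, 6 had a promoter entry. No match to the NF-κB consensus was found in the windows of Cxcr1, Cxcr2 or Cxcr4. The AP-1 motif (TGACTCA or TGAGTCA, in 5.20% of promoters), the C/EBP palindrome TTGCGCAA (0.183%), the GAS element TTCNNNGAA (8.30%) and the ISRE core (3.44%) had no match in any of the 6 on either strand. The looser C/EBP-type motif TTNNNCAA matched once each in Cxcl2, Cxcr2 and Cxcr4, and in 36.7% of all promoters. Of the 11 other genes with GGGAATTTCCC in their promoter, 3 were tested, namely Il16 (log2 fold change 0.09, standard error 0.07), Hpn (0.37, standard error 0.28) and Zfp84 (-0.10, standard error 0.11), and the lowest adjusted p among them was 0.646 by edgeR's quasi-likelihood test.

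The ELR ligands also share a feature at the other end of their transcripts. ATTTA is the core of the AU-rich elements through which short-lived cytokine mRNAs are destabilized by tristetraprolin and related proteins. Counting overlapping matches, the 3′ UTR held 7 copies in Cxcl1 (592 bases), 11 in Cxcl2 (734 bases) and 5 in Cxcl3 (645 bases). Among other 3′ UTRs within 20% of the same length, 6 of 2084 held as many copies as Cxcl1 (0.29%), 0 of 2281 as many as Cxcl2 and 62 of 2255 as many as Cxcl3 (2.75%). Cxcl16 and Cxcr2 held 2 copies each and Cxcr4 held 1, numbers reached by 61.1%, 46.1% and 58.1% of other 3′ UTRs of like length. Cxcr1 had no annotated 3′ UTR long enough for this count.

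The libraries held 17767318 and 17973695 counts on genes in the control group and 18390385 and 18091684 in the EGCG group. By the markers listed for each cell type, these were mainly neutrophil-lineage cells: the 10 neutrophil markers, Ly6g, S100a8 and S100a9 among them, summed to 61010 and 72410 CPM without EGCG and to 81460 and 72200 CPM with EGCG (CPM scales counts to a common library size after TMM). Sums were far lower for the other types, the largest being those of the 6 B cell markers at 1753 to 2008 CPM, the 4 eosinophil markers at 746 to 1052 CPM and the 7 monocyte markers at 951 to 1049 CPM. Of the 5 markers of 4T1 epithelium, Krt8 and Krt19 had 3 counts or fewer in every library, but Cdh1, Epcam and Krt18 were detected, and the 5 summed to 22.7 to 26.7 CPM. Epcam was higher without overlap, at 3.56 and 3.30 CPM without EGCG and at 5.07 and 5.54 CPM with EGCG. Krt18, on 10 to 24 counts, was also higher without overlap, at 1.04 and 0.560 CPM against 1.32 and 1.06 CPM. Cdh1, which made up most of the sum, was lower without overlap, at 22.0 and 20.5 CPM against 16.2 and 19.3 CPM. Of all tested genes, 21.2% were lower and 21.5% higher without overlap, so nothing is read from these 3 markers. Control replicate 1 was the farther control from the EGCG libraries. Its counts averaged a chi-square per gene of 16.0 and 12.4 against them, where control replicate 2 had 7.57 and 6.70. Replicates of a group gave 6.85 (control) and 6.64 (EGCG). In bulk RNA of this kind, fewer cells of a type and less RNA per cell cannot be told apart.

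Cxcr2 and Cxcr4 were the most abundant of the 7 transcripts. Levels were compared between genes as TPM, which divides counts by exonic length. Cxcr2 averaged 907 ± 55.3 TPM over the 4 libraries (SD), above 99.1% of the tested genes with a length, and Cxcr4 averaged 596 ± 29.2 TPM, above 98.5%. Cxcl2 was the leading ligand at 156 ± 25.5 TPM, followed by Cxcr1 at 23.4 ± 1.12 TPM, Cxcl16 at 21.3 ± 5.55 TPM, Cxcl1 at 6.21 ± 1.46 TPM and Cxcl3 at 5.52 ± 2.16 TPM. Cxcr1 and Cxcl16 overlapped over the 4 libraries, and so did Cxcl1 and Cxcl3, so the order within these pairs is not resolved; the other neighbors in the order did not overlap. The annotated exons of Cxcl1, Cxcl2 and Cxcl3 include retained introns, and with the length of the coding transcript alone Cxcl3 stood at 19.0 TPM, Cxcl1 at 12.2 TPM and Cxcl2 at 291 TPM, which places Cxcl3 above Cxcl1.

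**Figure D2:**
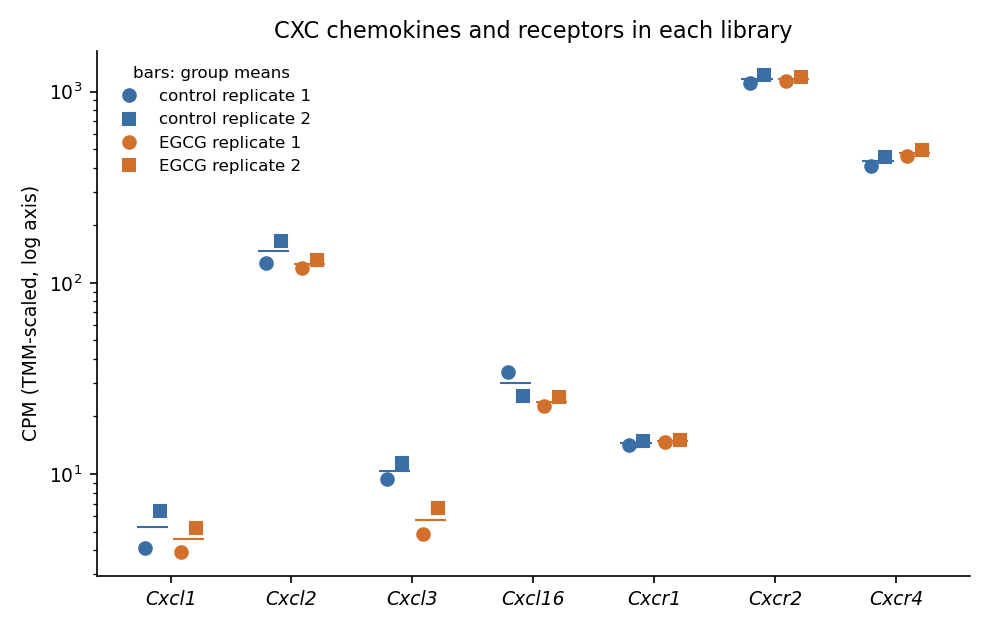
CPM of each gene (log axis) in the 2 control libraries (blue) and the 2 EGCG libraries (orange), with circles for replicate 1, squares for replicate 2 and bars for group means. The EGCG libraries of Cxcl3, at 4.85 and 6.61 CPM, lie below the control libraries at 9.42 and 11.4 CPM, whereas Cxcr2 stays between 1112 and 1228 CPM in all 4.

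Cxcl3, a ligand of CXCR2, was the member with the largest difference between the groups, and the one for which the set was chosen. Its counts were 172 and 203 without EGCG and 88 and 118 with EGCG. These correspond to 9.42 and 11.4 CPM against 4.85 and 6.61 CPM. Both EGCG libraries were lower than both control libraries, and the nearest pair, control replicate 1 and EGCG replicate 2, was still 0.51 apart on the log2 scale, against 0.27 between the control replicates and 0.45 between the EGCG replicates. The mean was 10.4 ± 1.37 CPM (SD, n = 2) without EGCG and 5.73 ± 1.24 CPM (SD, n = 2) with EGCG, or 55.1% of control. The log2 fold change was -0.86 with a standard error of 0.18. Counting error alone, which leaves out the spread between libraries, gave exact 95% Poisson intervals of 8.06 to 10.9 CPM in control replicate 1 and 5.47 to 7.91 CPM in EGCG replicate 2. With each library left out in turn the log2 fold change ran from -1.10 (without EGCG replicate 2) to -0.65 (without EGCG replicate 1).

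Cxcl2, the most abundant ligand, showed a smaller difference in the same direction. Its counts were 2326 and 2960 without EGCG and 2160 and 2360 with EGCG, which is 127.4 and 165.6 CPM against 119.1 and 132.1 CPM. The groups overlapped, since EGCG replicate 2 lay above control replicate 1, and the high value was control replicate 2. Its log2 fold change was -0.22 (standard error 0.11). Leaving out control replicate 1 gave -0.39 and leaving out control replicate 2 gave -0.02, so the size of the difference rested on which control library was kept.

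Cxcl1, also known as KC, was scarce. It had 75 and 115 counts without EGCG and 71 and 93 with EGCG, or 4.11 and 6.43 CPM against 3.92 and 5.21 CPM. The groups overlapped, and in each group replicate 2 was the higher library. The log2 fold change was -0.21 with a standard error of 0.24, and leaving out control replicate 2 turned it to 0.15 while leaving out control replicate 1 gave -0.49, so no direction can be given for Cxcl1.

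The 3 ELR ligands were also set against each other within a library, where the scaling of libraries cancels. Since the set was chosen for the lower Cxcl3, its lower share restates that choice and is given as a description. Cxcl3 made up 4.05% and 3.74% of their summed counts per kilobase without EGCG and 2.27% and 2.75% with EGCG. The share of Cxcl3 was lower in both EGCG libraries than in both control libraries, with means of 3.90% ± 0.218 and 2.51% ± 0.342 (SD, n = 2). The share of Cxcl1 was 3.30% and 3.96% without EGCG and 3.42% and 4.05% with EGCG, which interleaved. Cxcl2 made up the remainder, 92.7% and 92.3% without EGCG and 94.3% and 93.2% with EGCG. Per kilobase, Cxcl2 stood at 22.9 and 24.7 times Cxcl3 without EGCG and at 41.5 and 33.8 times with EGCG, whereas its ratio to Cxcl1 was 28.1 and 23.3 without EGCG and 27.6 and 23.0 with EGCG. With the length of the coding transcript the share of Cxcl3 averaged 6.95% without EGCG and 4.53% with it. Part of the sequence of Cxcl3 (5.46% of its 31-base words) and of Cxcl2 (7.59%) also occurs in transcripts of other genes, for both mostly in those of the other, and reads from there could have been split or dropped.

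**Figure D3:**
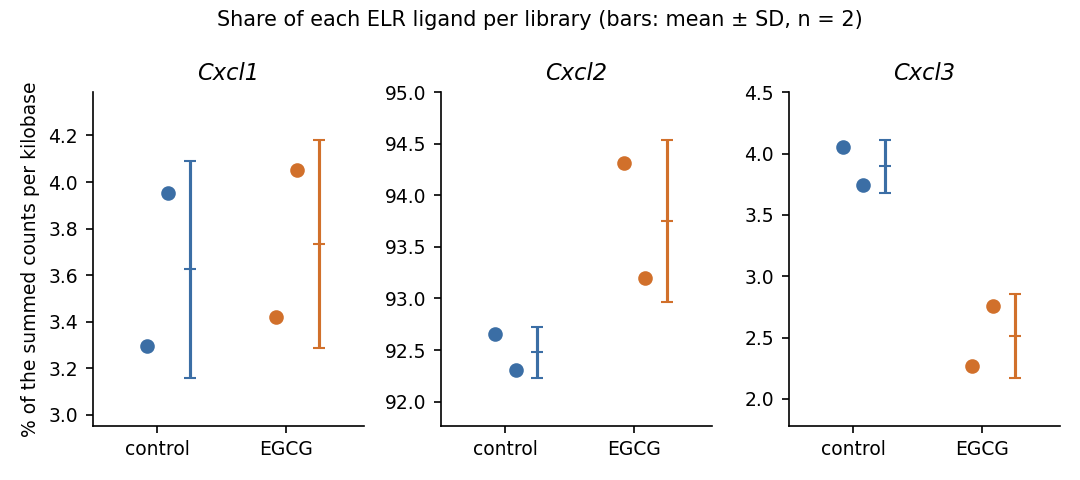
Share of Cxcl1, Cxcl2 and Cxcl3 in their summed counts per kilobase (%), with a point for each library and bars for the mean ± SD of 2 libraries; each panel has its own axis, which does not start at 0. The share of Cxcl3 is 4.05% and 3.74% without EGCG and 2.27% and 2.75% with EGCG, whereas the shares of Cxcl1 interleave.

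Cxcl16 (ENSMUSG00000018920; chromosome 11, 70453983 to 70459984, minus strand) differed mainly through 1 library. Its counts were 626 and 457 without EGCG and 409 and 449 with EGCG, or 34.3 and 25.6 CPM against 22.6 and 25.1 CPM. Both EGCG libraries were lower than both control libraries, but control replicate 2 and EGCG replicate 2 were only 0.02 apart on the log2 scale, and control replicate 1 was the high value. The log2 fold change of -0.33 (standard error 0.13) became -0.10 once control replicate 1 was left out and -0.52 once control replicate 2 was. Cxcl16 shares 552 exonic bases, 18.3% of its exons, with Zmynd15 on the other strand, and the counting did not use strand; Zmynd15 itself had between 24 and 50 counts.

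The receptors were nearly level between the groups. Cxcr2 (ENSMUSG00000026180; chromosome 1, 74153989 to 74161246, plus strand) is the main receptor of the ELR ligands on neutrophils. It was at 1112 and 1228 CPM without EGCG and at 1137 and 1189 CPM with EGCG. The EGCG libraries lay inside the range of the controls. The log2 fold change was -0.01 (standard error 0.08) and ran from -0.07 to 0.07 with a library left out. For Cxcr2, 7.70% of the 31-base words also occur in transcripts of other genes, most often Churc1.

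Cxcr1 (ENSMUSG00000048480; chromosome 1, 74191785 to 74194631, minus strand) lies 30.5 kb from Cxcr2 and is its closest relative. It was at 14.2 and 14.9 CPM without EGCG and at 14.7 and 15.1 CPM with EGCG, a log2 fold change of 0.04 (standard error 0.12). Per kilobase, Cxcr2 stood at 38.3 and 40.4 times Cxcr1 without EGCG and at 37.9 and 38.5 times with EGCG, so the balance of the 2 receptors differed little from library to library.

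Cxcr4 (ENSMUSG00000045382; chromosome 1, 128588199 to 128592293, minus strand), the CXCL12 receptor, was at 409.1 and 457.9 CPM without EGCG and at 460.0 and 496.0 CPM with EGCG. Both EGCG libraries were higher than both control libraries, though EGCG replicate 1 exceeded control replicate 2 by only 0.01 on the log2 scale. For Cxcr4 the log2 fold change was 0.14 (standard error 0.08), and it ran from 0.07 without control replicate 1 to 0.23 without control replicate 2. The ratio of Cxcr2 to Cxcr4 per kilobase was 1.61 and 1.59 without EGCG and 1.47 and 1.42 with EGCG, which did not overlap. For single genes, 21.2% of all tested were lower and 21.5% higher without overlap. No such share was computed for ratios, so no shift in receptor balance is read from it.

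**Figure D4:**
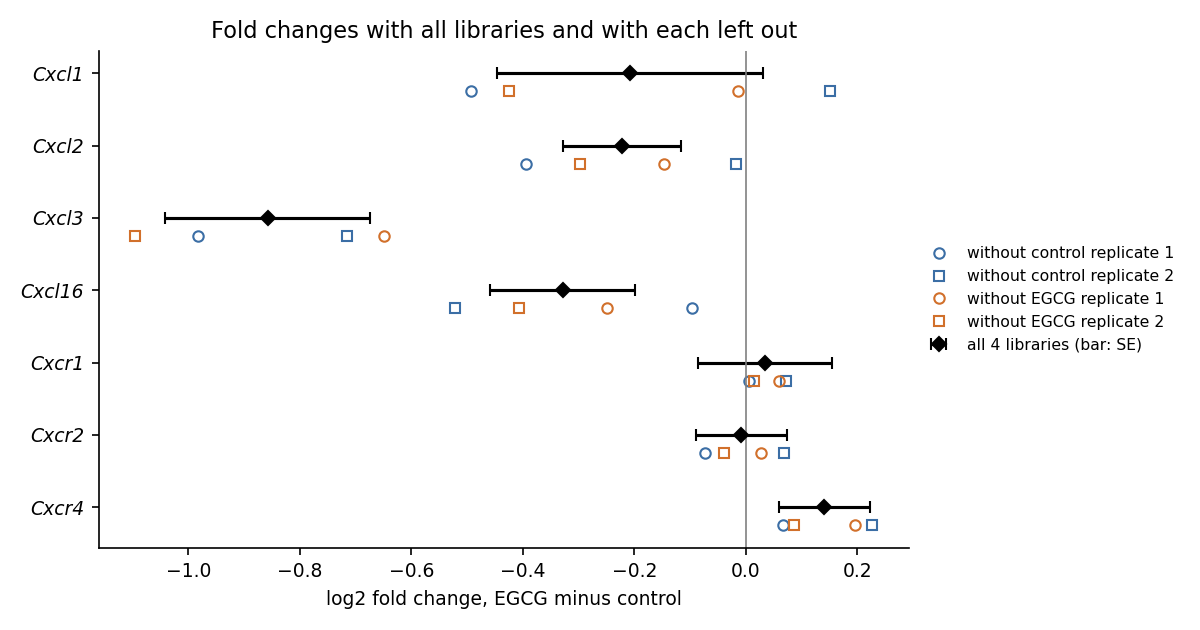
Log2 fold change of each gene (EGCG minus control) with all 4 libraries (diamond, bar for the standard error) and with each library left out (open symbols). Cxcl3 stays between -1.10 and -0.65, Cxcl1 crosses 0 without control replicate 2, and Cxcl16 is at -0.10 without control replicate 1.

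Across the whole table, the quasi-likelihood test of edgeR, adjusted by Benjamini-Hochberg, called 22 of the tested genes at an adjusted p under 0.05, or 0.15%. None of the 7 CXC genes was among them (0 of 7), and 2, Cxcl3 and Cxcl16, had an unadjusted p under 0.05, as had 12.2% of all tested genes. DESeq2 and limma-voom also called 0 of the 7, each with 2 at an unadjusted p under 0.05, where DESeq2 gave no adjusted p for Cxcl1, Cxcl3 or Cxcr1. Cxcl3 was called when libraries were scaled by their totals alone and with edgeR's robust estimation. Cxcl3 was also called without EGCG replicate 2, Cxcl2 and Cxcl3 without control replicate 1 and Cxcl16 without control replicate 2. Those fits leave a group with 1 library, which is assumed to vary like the 2 of the other group, and they called 72 to 235 lower genes in all against 20 with every library. Both EGCG libraries were below both controls for 2 of the 7, against 21.2% of all tested genes, and both above them for 1 of the 7, against 21.5%. Since this contrast chose the set, nothing is read from these counts. On the log2 scale the median difference was -0.21 over the 7 and 0.00 over all tested genes. With a library left out the former ran from -0.30 to 0.07 (without control replicate 2).

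The remaining CXC genes were mostly scarce. Of 11 other CXC chemokine genes, 5 were tested. By edgeR's quasi-likelihood test 0 of them were called (adjusted p between 0.695 and 0.972), against 0.15% of all tested genes. At an unadjusted p under 0.05 there were also 0, against 12.2% of all tested genes. Cxcl11, whose product is an interferon-induced ligand of CXCR3, had the largest difference, from 1.48 and 1.46 CPM without EGCG to 1.27 and 0.952 CPM with EGCG (log2 fold change -0.40, standard error 0.35). Cxcl10, another interferon-induced ligand of CXCR3, was at 17.96 and 30.27 CPM without EGCG and 14.45 and 25.64 CPM with EGCG (log2 fold change -0.27, standard error 0.23), so its replicates differed more than its groups. Cxcl5, an ELR ligand of CXCR2 that lies in the same cluster on chromosome 5, had 8 and 6 counts without EGCG and 7 and 6 with EGCG. Cxcl12, the ligand of CXCR4, had between 3 and 6 counts. Cxcl9, Cxcl13, Cxcl15 and Cxcl17 were likewise too low to test. Pf4 and Ppbp, platelet chemokines of the same cluster, were at 3.31 to 5.71 and at 1.15 to 3.86 CPM.

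Among the other CXC receptors and decoys, 4 of 5 were tested. The quasi-likelihood test of edgeR called 0 of them (adjusted p between 0.453 and 0.978), against 0.15% of all tested genes. It also gave 0 at an unadjusted p under 0.05, against 12.2% of all tested genes. Cxcr3, the receptor of CXCL9, CXCL10 and CXCL11, was at 3.34 and 3.64 CPM without EGCG and at 4.69 and 4.59 CPM with EGCG (log2 fold change 0.41, standard error 0.21). Cxcr5, with the highest CPM of this list, was at 26.3 and 27.8 CPM without EGCG and at 29.2 and 29.8 CPM with EGCG. Its groups did not overlap (log2 fold change 0.13, standard error 0.10). Cxcr6, the receptor of CXCL16, was at 0.895 to 1.43 CPM (log2 fold change 0.31, standard error 0.37). Ackr1 was too low to test.

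Downstream of the receptors, edgeR's quasi-likelihood test called 0 of the 16 signaling genes (0.15% of all tested genes). At an unadjusted p under 0.05 there was 1 (12.2% of all tested genes). Plcb2, the gene in question, encodes the phospholipase C isoform through which chemokine receptors raise calcium, and was at 265.1 and 240.0 CPM without EGCG and 226.2 and 198.8 CPM with EGCG (log2 fold change -0.25, standard error 0.08, adjusted p of 0.259). Pik3r5, a regulatory subunit of PI3Kγ, had a log2 fold change of -0.18 (standard error 0.08). The Gα subunit gene Gnai2 had a log2 fold change of 0.12 (standard error 0.08) and Gnb2, a Gβ subunit gene, of 0.16 (standard error 0.07). The median over the list was 0.05.

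Among 11 genes that desensitize these receptors, 0 were called by edgeR's quasi-likelihood test, against 0.15% of all tested genes. By the same test 1 had an unadjusted p under 0.05, as had 12.2% of all tested genes. Grk3, a kinase that phosphorylates activated receptors, had the largest difference of all list genes, from 44.4 and 31.4 CPM without EGCG to 23.1 and 27.2 CPM with EGCG. Both EGCG libraries lay below both control libraries, and control replicate 1 was the high value. The log2 fold change of Grk3 was -0.59 (standard error 0.14, adjusted p of 0.120). Grk3 passed an adjusted p of 0.05 when scaled by library totals alone, with DESeq2, without control replicate 2 and without EGCG replicate 2. Its relatives Grk2, Grk5 and Grk6 had log2 fold changes of 0.05, 0.08 and 0.13, and the arrestin genes Arrb1 and Arrb2 of -0.14 and 0.06. Rgs19 and Rgs1, regulators of G protein signaling, had log2 fold changes of 0.15 (standard error 0.07) and -0.15 (standard error 0.13). Without EGCG replicate 2, which leaves 1 EGCG library, Rgs1 and Cxcl10 also passed an adjusted p of 0.05.

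Of 18 genes that set the level of CXC ligand transcripts, edgeR's quasi-likelihood test called 0 (0.15% of all tested genes) and 1 had an unadjusted p under 0.05 (12.2% of all tested genes). They went both ways, 11 lower and 7 higher in sign, around a median log2 fold change of -0.04. Without overlap 4 were lower and 2 higher, against 21.2% and 21.5% of all tested genes. Tnfaip3, the gene at an unadjusted p under 0.05, encodes the NF-κB inhibitor A20 and was at 219.6 and 231.1 CPM without EGCG and 187.6 and 212.2 CPM with EGCG (log2 fold change -0.17, standard error 0.08, adjusted p of 0.406). The NF-κB subunit genes Rela, Relb, Rel, Nfkb1 and Nfkb2 had log2 fold changes of 0.07, 0.06, -0.12, -0.09 and -0.04. Nfkbia and Nfkbiz, which encode an inhibitor and a cofactor of NF-κB, had values of 0.07 and -0.08. For the genes of ATTTA-binding and mRNA-cleaving proteins, Zfp36 (tristetraprolin) and Zc3h12a (Regnase-1), the log2 fold changes were 0.06 and -0.12, with standard errors of 0.09 and 0.08. Il1r1, a receptor upstream of NF-κB, was scarce (1.42 to 2.41 CPM) and had the largest difference of the list, -0.32 with a standard error of 0.34. Adam10 and Adam17, the proteases that shed CXCL16, had log2 fold changes of 0.03 and -0.02.

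**Figure D5:**
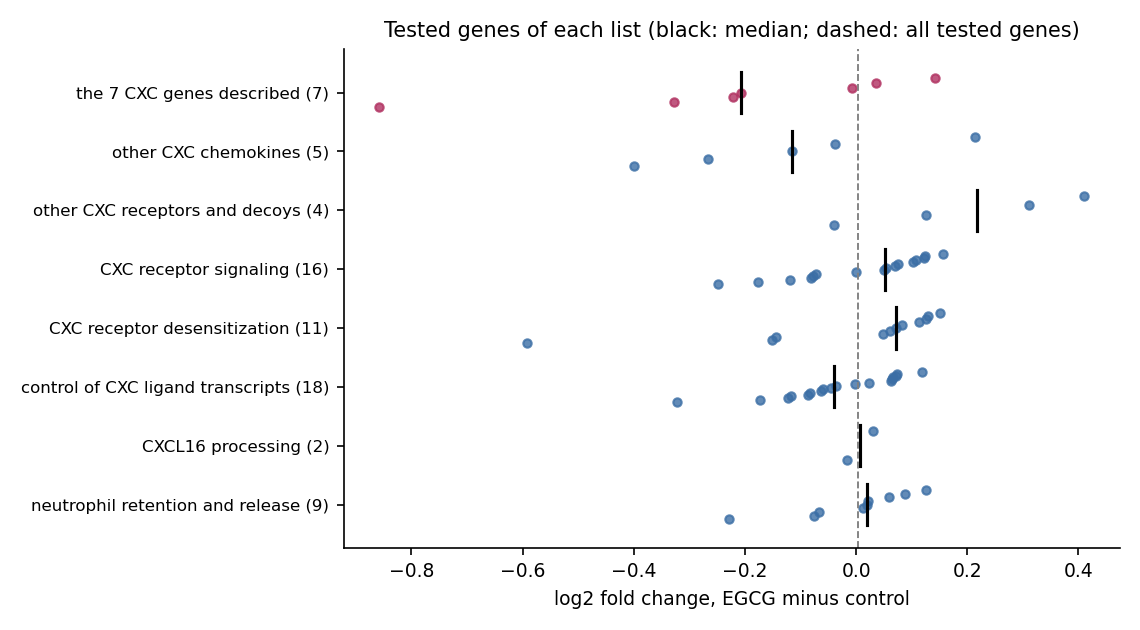
Log2 fold change (EGCG minus control) of each tested gene of the 7 CXC genes and of the related lists, with the number tested in brackets, a black bar for the list's median and a dashed line for the median of all tested genes. Cxcl3 (-0.86) and Grk3 (-0.59) lie apart from the other points, and the medians of the related lists run from -0.11 to 0.22.

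Of 9 genes for the retention and release of neutrophils, edgeR's quasi-likelihood test called 0 (0.15% of all tested genes). An unadjusted p under 0.05 was reached by 1 of them (12.2% of all tested genes). Vcam1, an adhesion molecule of stroma and macrophages, was at 56.6 and 52.1 CPM without EGCG and 43.3 and 49.4 CPM with EGCG (log2 fold change -0.23, standard error 0.09, adjusted p of 0.349). Itgam, the CD11b subunit, had a log2 fold change of 0.13 (standard error 0.08), and Csf3r, the G-CSF receptor of neutrophils, of 0.01. Over the 72 genes of these related lists, 65 of them tested, DESeq2 called 1, Grk3, and limma-voom called 0. Among all 14682 tested genes DESeq2 called 54 lower and 14 higher, and limma-voom 20 lower and 4 higher.

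Markers of other cell types differed between the same libraries. Over all tested genes, both EGCG libraries were below both controls for 21.2% and above them for 21.5%, and 12.2% had an unadjusted p under 0.05. All 7 macrophage markers were lower with EGCG in sign, 4 of them without overlap, and their sums were 377.9 and 380.8 CPM without EGCG and 298.9 and 318.1 CPM with EGCG. All 5 tested endothelial markers were lower without overlap, with sums over the 6 markers of 119.0 and 129.8 CPM against 96.96 and 102.3 CPM. All 4 eosinophil markers were lower without overlap, with sums of 1052 and 907.1 CPM against 883.9 and 745.9 CPM. Of the 7 monocyte markers, 6 were lower in sign and 4 without overlap, with sums of 1049 and 1009 CPM against 950.9 and 957.8 CPM. All 5 platelet markers were lower in sign, 1 of them without overlap. In the other direction, 5 of the 6 B cell markers were higher in sign, 4 of them without overlap, with sums of 1753 and 1849 CPM against 1954 and 2008 CPM. Of the 6 erythroid markers, 5 were higher in sign and 3 without overlap, with sums of 153.7 and 193.8 CPM against 183.1 and 205.8 CPM. Of the 10 neutrophil markers, 8 were higher in sign, 3 of them without overlap, and 2 were lower, 1 of them without overlap. None of the markers of any type was called at an adjusted p under 0.05 by edgeR. Among the 8 types just described, an unadjusted p under 0.05 was reached by 3 macrophage, 4 endothelial, 2 eosinophil, 2 monocyte and 1 platelet marker, all lower, and by 1 B cell, 1 erythroid and 1 neutrophil marker (S100a8), all higher. Cxcl3 and Cxcl16 were lower in the same libraries as the macrophage, endothelial, eosinophil and monocyte sums. The capture on Gr-1 would leave behind cells without that epitope, such as endothelial cells, yet markers of these types were counted. A marker sum does not by itself show that such cells were present. The part of these cells in the levels of Cxcl3 and Cxcl16 was not tested.

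The genes most like Cxcl3 were sought by the Euclidean distance between mean-centred log2 CPM over the 4 libraries. The search covered 13625 tested genes with at least 10 counts in every library. For the distances, libraries were scaled by their totals over the tested genes, without TMM, whereas the CPM printed here are TMM-scaled. Among the nearest were Dagla (distance 0.11), Mx2 (0.16), Gm42659 (0.18) and Ahrr (0.18). These 4 were lower in both EGCG libraries, which the choice by likeness fixes. Ahrr, the repressor of the aryl hydrocarbon receptor, was at 7.23 and 8.34 CPM without EGCG and 3.14 and 4.48 CPM with EGCG, and Mx2, an interferon-induced GTPase, was at 5.26 and 6.43 CPM against 2.702 and 4.199 CPM. The other CXC genes were farther away: Cxcl2 ranked 904th, Cxcl1 1257th and Cxcl16 1674th in likeness to Cxcl3, and Cxcr4 9151st.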

How the data were processed

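Per the labels and the study's methods, reads were aligned by the authors (STAR 2.6.0c, GRCm38), assigned to Ensembl release 91 genes with featureCounts 1.6.2 regardless of strand, and deposited as raw whole-number counts per gene for the 4 libraries. No row lacked a gene name, and there were 0 columns of other samples. Where a symbol had more than 1 identifier, that with the most counts was used.

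Genes were filtered with filterByExpr (minimum count of 10), scaled by TMM and compared by the legacy quasi-likelihood test of edgeR 4.0.16 (Benjamini-Hochberg adjustment over all tested genes, threshold 0.05). The standard error is the log2 fold change divided by the square root of F. With 2 libraries against 2, an exact two-sided permutation test cannot go below p = 0.333, so none was used. The fit was first tested on simulated data. TPM used the union of exons in GENCODE M21 (GRCm38), which held 53360 of 53465 identifiers. Intervals are exact Poisson (95%) and cover counting error only; no molecular identifiers are described. Promoters came from RefSeq (GRCm38.p6).

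The members and all gene lists were chosen with earlier results of these data known. Named genes are the 7 members, list genes past the threshold or with the largest differences, and the 5 genes nearest to Cxcl3, of which 1 is not reported here; further list genes are named by role. Alternatives were other scalings, filters, quasi-likelihood forms, DESeq2 1.42.0, limma-voom (limma 3.58.1), a length correction (loess, span 0.4), a replicate block, other lengths and leaving out each library. The coding transcript length was added after seeing the data. Other tools were R 4.3.3, Python 3.11.15, pandas 2.3.3, SciPy 1.17.1 and matplotlib 3.10.9.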

Additional observations from a re-analysis of the deposited data

How the results depend on the processing

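Over the 12 alternatives that kept all 4 libraries, Cxcl1, Cxcl2, Cxcl3, Cxcl16 and Cxcr2 kept a negative sign and Cxcr1 and Cxcr4 a positive one; the log2 fold change of Cxcl3 ran from -0.89 to -0.85. The number of the 7 genes past an adjusted p of 0.05 was 0, but 1 (Cxcl3) with library size only and 1 (Cxcl3) with robust estimation, and 0 to 2 with a library left out. The median of the 7 ran from -0.297 to 0.0679 with a library left out. Among the list genes the number was 0, but 1 (Grk3) with library size only and 1 (Grk3) with DESeq2, and 0 to 3 with a library left out.

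Against 20 lower and 2 higher genes among all tested, upper-quartile scaling gave 9 lower, library size only 135 lower and 16 higher, and no filter on low counts 0 lower and 0 higher, with 27490 genes tested in place of 14682. A filter of 1 CPM gave 1 higher, the newer quasi-likelihood form 6 higher, robust estimation 49 lower and 14 higher, DESeq2 54 lower and 14 higher, and limma-voom 4 higher. A length correction gave 1 lower. With a library left out, 72 to 235 genes were lower and 5 to 119 higher. Where no reason is given here, the cause was not tested.

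The labels mark no shared mouse or batch for libraries with the same replicate number. Across 14682 genes, replicate 2 minus replicate 1 in the control group had Pearson 0.0332 and Spearman 0.0211 with the same difference in the EGCG group. Such a correlation over all genes cannot show whether libraries were paired. Of the 7 genes, all but Cxcl16 had the higher CPM in replicate 2 in both groups. A replicate block gave 24 lower and 6 higher genes, and a replicate block with length correction 2 lower and 1 higher; both left 0 of the 7 genes past the threshold.

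The list medians moved as follows. With library size only they were 0.18 for the other CXC receptors, 0.0383 for desensitization, -0.0279 for CXCL16 processing and -0.0136 for retention and release. With the length correction they were 0.0400 for control of ligand transcripts, 0.0611 for CXCL16 processing and 0.0685 for retention and release, and with the replicate block added 0.0396, 0.0614 and 0.0710. With a library left out they ran from -0.38 to 0.16 for the other CXC chemokines, 0.22 to 0.28 for the other receptors, -0.0115 to 0.0744 for signaling, -0.0662 to 0.0083 for control of ligand transcripts, -0.0159 to 0.0333 for CXCL16 processing and -0.0410 to 0.0282 for retention and release, so the sign of the median depended on the library left out for each of these lists but the other receptors.

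Levels depend on the length used, by construction. The longest transcript gave 128.7 TPM for Cxcl2, 4.55 for Cxcl3, 19.8 for Cxcr1, 747.7 for Cxcr2 and 491.9 for Cxcr4. The coding transcript, chosen after seeing the data, gave 12.2 for Cxcl1, 291 for Cxcl2, 19.0 for Cxcl3 and 1245 for Cxcr2. The share of Cxcl3 among the ELR ligands differed by -1.38 percentage points (EGCG minus control), by -2.25 from counts without division by length and by -2.42 with the coding transcript length, and by -1.63 to -1.14 with a library left out.

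Depth limits the scarce genes: Cxcl1 and Cxcl3 rest on 71 to 203 counts a library, and 2 libraries a group limit every comparison.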
